A study of Mus with 2 samples.

Results

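Within the tumor of a mouse given recombinant mouse IL7 (rIL7), 102 spots of the tissue interior were rich in T cell transcripts. They are 6.38% (95% interval 5.23 to 7.69%) of the 1599 interior spots of that section, out of 4169 spots that passed the filter in the whole series. A spot is a capture area of a Visium array, on which RNA from a frozen section is bound in place, and it can hold several cells of different types. Each captured molecule carries a unique molecular identifier (UMI) and is counted once. A spot was a member when it lay at least 3 grid steps inside the outer outline of the tissue, with the outline itself as step 1, and held at least 4 UMIs summed over 8 genes. Those genes were Cd3d, Cd3e, Cd3g, Trac, Cd2, Cd8a, Cd8b1 and Cd4. The comparison spots were the 603 interior spots with 0 UMIs of these genes, and the remaining 894 interior spots held 1 to 3.

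The series holds 2 spatial sections, each 10 µm thick and each a single library from BALB/c mice aged 6-8 weeks. CT26 colon carcinoma cells had been injected under the skin of female mice and the tumors were collected on day 15. The rIL7 mouse received 10 µg rIL7 into the peritoneum on day 11 and day 13, and the control mouse received PBS. Each group is 1 section without a replicate, and the values below carry no test. Intervals are exact 95% intervals that cover counting error only, and they leave out differences between spots, animals and sections.

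Cd3d, Cd3e and Cd3g encode chains of the CD3 complex, which carries the signal of the T cell receptor, and Trac encodes the constant part of the receptor's alpha chain. CD8, built from the products of Cd8a and Cd8b1, marks T cells that recognise peptides on MHC class I molecules and can kill the cells that show them. CD4 marks T cells that read MHC class II molecules, which macrophages, dendritic cells and B cells carry. IL7 is a cytokine that sustains T cells, and T cells that enter a tumor often stay near its margin.

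The members were few-copy calls in deep spots. Of the 102 spots, 61 held exactly 4 UMIs of the 8 genes, 20 held 5, 17 held 6 and 4 held 7. Just outside the limit lay 110 interior spots with exactly 3. Total UMIs per member ran from 5875 to 30749 with a median of 15380.5, against a median of 12773 in the spots with 0, a ratio of 1.20. The median number of genes detected was 5210 in the members and 4625 in the spots with 0. A deeper spot reaches 4 UMIs more easily, so levels are given below as counts per 1000000 UMIs (CPM). Spots with 0 were also weighted to the members' depth, and values under this weighting are given for some genes and lists only.

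The 474 UMIs that chose the spots came mainly from the receptor complex and from CD8. Trac supplied 106 UMIs, in 68 of the spots. Cd8a supplied 96, also in 68 spots, and Cd3g 94, in 72 spots. Cd3e gave 54, Cd3d 52, Cd8b1 36 and Cd2, an adhesion receptor of T and NK cells, 26. Cd4 gave 10, each in a spot of its own. Every member held at least 1 CD3 or Trac UMI, 92 held UMIs of 3 or more of the genes, and no gene exceeded 3 UMIs in a spot. No member was therefore chosen on Cd4 or Cd2 alone.

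Transcripts of CD8 far outnumbered those of CD4 in these spots. CD8 UMIs were detected without Cd4 in 76 of the 102 spots, Cd4 without CD8 in 1, both in 9 and neither in 16. Pooled over the members, 132 of 142 CD8 and CD4 UMIs were CD8, a share of 93.0% (87.4 to 96.6%). Spots of the outer 2 grid steps offered a comparison, since 127 of those 330 spots passed the same limit. Among these edge spots the CD8 share was 170 of 270, or 63.0% (56.9 to 68.7%), and 20 of the 127 had Cd4 without CD8. The level of Cd4 was 6.34 CPM in the interior members and 59.6 CPM in the T cell rich edge spots, whereas Cd8a was at 60.9 CPM and 69.2 CPM. Interior spots with 1 to 3 UMIs of the 8 genes had Cd8a at 22.4 CPM, Cd8b1 at 6.77 CPM and Cd4 at 3.92 CPM. CD8 thus outnumbered Cd4 there too, and this was not particular to the members within the interior. The intervals of the CD8 shares do not overlap, but they hold counting error alone and the sums come from the rule's own genes, so this is a description. UMIs are not equally well captured for every gene, so the share compares the same genes between places rather than cells of each type.

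Within the interior, T cell rich spots were most frequent at its outer rim, although the edge itself held a larger share, 38.5%. Their share was 16.9% at step 3 and 16.1% at step 4, where 48 of the 102 members lay, and 5.19% at step 5. From step 6 inwards 47 of 1173 spots were members, 4.01% (2.96 to 5.29%), against 55 of 426 in steps 3 to 5, 12.9% (9.88 to 16.5%). The deepest member lay at step 20. The median step was 5 for members and 10 for spots with 0 UMIs. Around the section the shares also differed, from 1.90% in the quadrant of low array rows and columns to 6.76%, 7.74% and 9.89% in the others. That first quadrant held 9 of the members and 228 of the 603 spots with 0. Contrasts pooled over the interior therefore also compare regions of the section.

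**Figure D1:**
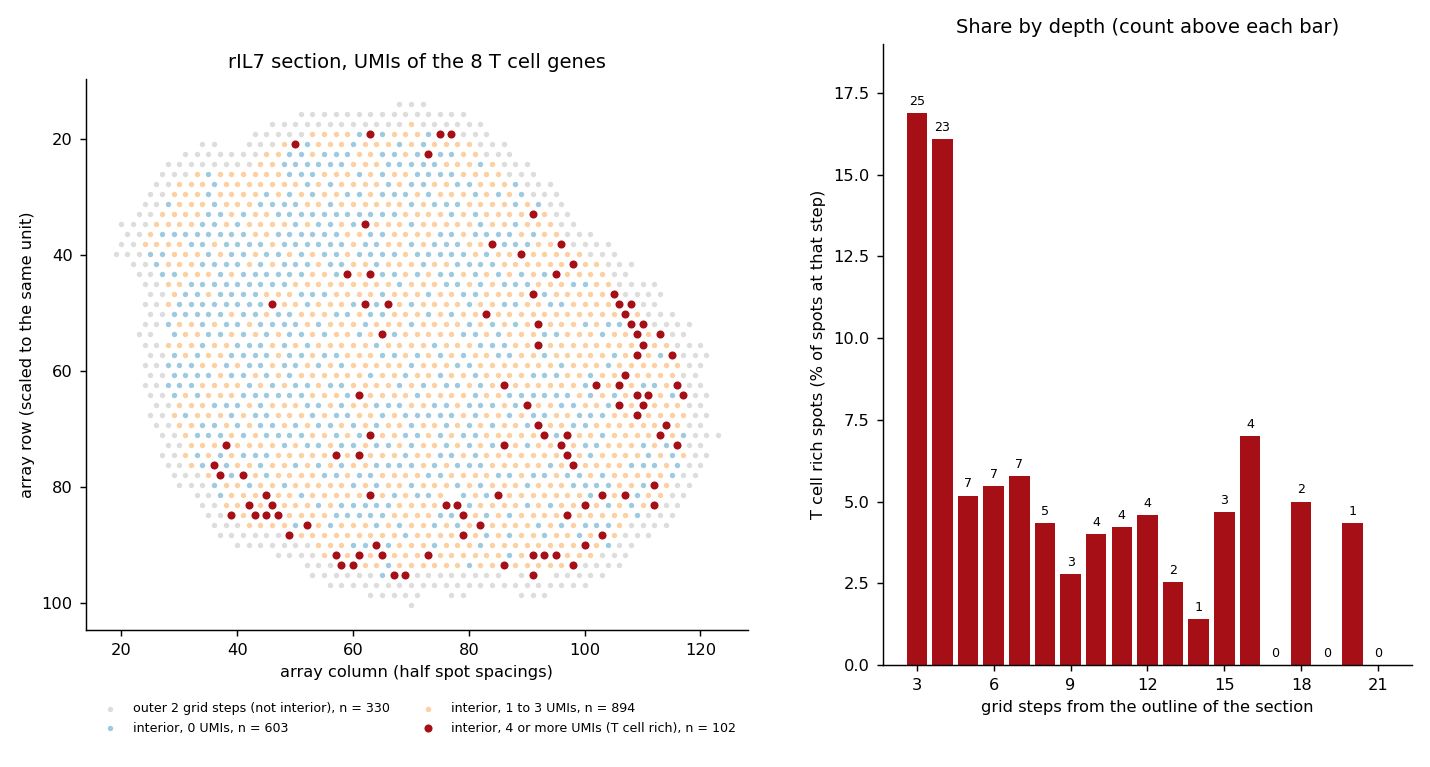
Left, the rIL7 section with each spot at its array position, coloured by its UMIs of the 8 T cell genes; right, the share of spots at each grid step from the outline that held 4 or more, with the number of such spots above each bar. The 102 members crowd below the lower and right margins, with 25 at step 3 and 23 at step 4, and a thinner scatter reaches step 20.

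Members touched another member more often than the spots with 0 did, although 53 of the 102 touched no other. A T cell rich neighbour was present for 49 of the 102 members (48.0%) and for 111 of the 603 spots with 0 UMIs (18.4%). Away from the crowded band, from step 6 inwards, the shares were 34.0% and 14.8%. The members formed 68 touching groups, of which 53 were single spots, 8 were pairs and 7 held 3 or more, and the largest held 9.

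Genes of T cells that played no part in the choice were higher in the members as well. This list of 19 genes, named independent T cell in the plots, included the beta chain constant genes Trbc1 and Trbc2, the surface proteins Thy1 and Cd27 and the signalling proteins Lck, Zap70 and Lat. Its UMIs per spot ran from 1 to 18 with a median of 6 in the members, and from 0 to 14 with a median of 3 in the spots with 0, so that the ranges overlapped widely. Summed over spots the list stood at 421 CPM in the members and 273 CPM in the spots with 0, a log2 ratio of 0.63 (0.50 to 0.75). Of its 9 genes with at least 50 UMIs in the sets together, 9 were higher and 7 exceeded a 1.5-fold ratio, where 3.70% of all 10553 such genes were higher by that fold. The median log2 ratio was 0.75 over the 9 genes and 0.00 over all. More T cells in a spot and more RNA per T cell cannot be told apart in such sums.

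Single genes of that list ranged widely. Cd27, a costimulatory receptor, was at 13.3 CPM against 4.10, 3.24-fold (1.78 to 5.80), from 21 and 32 UMIs. Thy1 was 1.95-fold (1.55 to 2.45), Ptprcap, which binds the phosphatase CD45, 1.92-fold (1.40 to 2.62), and Trbc1 1.68-fold (1.37 to 2.06). Trbc2 had the most UMIs and was nearly level, at 107 CPM against 98.8, 1.08-fold (0.91 to 1.28). The spots with 0 UMIs of the 8 genes still held 770 UMIs of Trbc2 and 379 of Trbc1, so they were not free of T cell transcripts, and the contrast is between richer and poorer spots. The list's log2 ratio was, from step 6 inwards, 0.25 (0.05 to 0.45), against 0.60 (0.41 to 0.80) in steps 3 to 5, and Trbc1 was then 1.05-fold.

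Cytotoxic genes were higher, and the granzyme Gzmb had the smallest ratio of the 12. The list was at 602 CPM in the members and 404 CPM in the spots with 0, a log2 ratio of 0.58 (0.47 to 0.68), and 5 of 8 countable genes passed 1.5-fold, against 3.70% of all genes. Ccl5, a chemokine that the chemokine list also holds, gave 383 of its 950 UMIs in the members and 1461 of 3151 in the spots with 0, where a single spot held 140. Without it, a choice made after the values were seen, the log2 ratio was 0.73 (0.59 to 0.87). Ctsw, a cathepsin of cytotoxic lymphocytes, had UMIs in 44 of 102 members and in 103 of 603 spots with 0, up to 5 and 3 in a spot, and stood at 38.0 against 14.7 CPM, 2.58-fold (1.86 to 3.55). Nkg7, a protein of cytotoxic granules, was 1.87-fold (1.42 to 2.42), and Prf1, which encodes the pore former perforin, 1.57-fold (1.19 to 2.04). Gzma was 1.41-fold (1.17 to 1.69). Between quadrants of the interior, the log2 ratio of the list of 12 ran from -0.02 to 1.02, higher in 3 of 4.

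Gzmb was at 38.0 CPM against 31.8, 1.20-fold (0.89 to 1.59), with UMIs in 40 of 102 members and 192 of 603 spots with 0. It was 1.69-fold in steps 3 to 5 and 0.83-fold from step 6 inwards, while Nkg7 was 1.25-fold and 2.01-fold. Fasl, the ligand of the death receptor Fas, was 3.15-fold (1.49 to 6.43) on 14 and 22 UMIs, and Ifng, which encodes interferon gamma, 2.38-fold (1.13 to 4.77) on 13 and 27. Xcl1, a chemokine of activated CD8 T and NK cells, was 3.36-fold (1.70 to 6.48) on 17 and 25. With the spots with 0 weighted to the members' depth the cytotoxicity log2 ratio was 0.30. Single genes did not move alike under this weighting. Ccl5 was at a log2 ratio of -0.28, Gzmb at 0.36 and Prf1 at 0.92. Nkg7 was at 1.09, Ifng at 1.46, Ctsw at 1.52 and Fasl at 1.85.

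NK cells share much of that program, and the choice of spots did not keep them out. The NK cell list of 7 genes had 109 UMIs in the members, 69.1 CPM against 40.4, a log2 ratio of 0.77 (0.45 to 1.09). Klrb1c, which encodes the NK1.1 receptor, had 12 and 13 UMIs, and Ncr1 37 and 124. The list's interval from step 6 inwards, -0.01 to 1.01, included 0. Between quadrants its log2 ratio ran from -0.49 to 0.84, higher in 3 of 4. The part of NK cells in the cytotoxic values was not tested.

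Genes of T cell state were thinly counted. Pdcd1, which encodes the inhibitory receptor PD-1, had UMIs in 15 of 102 members and 28 of 603 spots with 0, 10.8 against 3.59 CPM, 3.0-fold (1.54 to 5.68), and 3.35-fold from step 6 inwards. Ctla4, another inhibitory receptor, was 1.87-fold (1.0 to 3.33) on 17 and 45 UMIs. The list of 9 exhaustion genes was lower in sum, with a log2 ratio of -0.27 (-0.43 to -0.10), and Rgs16, which supplied 222 of its 349 UMIs, was 0.68-fold (0.59 to 0.78). The median over its 4 countable genes was 0.21, so that sum and median differ in sign. Lag3 had 4 UMIs in the members, Tox 2 and Tigit 0.

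Regulatory and naive T cell genes were higher in sum in the outer band. The regulatory T cell list was at 50.1 against 34.0 CPM, a log2 ratio of 0.56 (0.18 to 0.93), on 79 and 265 UMIs, with 4 of 4 countable genes higher and 2 past 1.5-fold, against 3.70% of all genes. It was 0.73 (0.16 to 1.31) in steps 3 to 5 and -0.02 (-0.68 to 0.58) from step 6 inwards. The naiveness list was at 0.31 (0.02 to 0.58) on 135 and 539 UMIs, with 3 of 3 countable genes higher and 1 past that fold, and at 0.90 (0.43 to 1.38) in steps 3 to 5 and -0.13 (-0.58 to 0.29) from step 6 inwards. Several defining genes had few UMIs. Foxp3, the factor that defines regulatory T cells, had 2 UMIs in the 102 members and 13 in the 603 spots with 0, 0.76-fold (0.08 to 3.36). In steps 3 to 5, where the regulatory list was higher, Foxp3 had 0 UMIs in the members and 3 in the spots with 0. Among genes of naive and memory T cells, Tcf7 had 2 UMIs, Lef1 1 and Ccr7 8. Cxcr3, the receptor for Cxcl9 and Cxcl10, had 9 and 14, 3.18-fold (1.21 to 7.88), and Cxcr6 had 12 and 25, 2.37-fold (1.09 to 4.90). The intervals of these single genes are wide.

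The IL7 pathway showed little difference between the spot sets. Il7r, the IL7 receptor alpha chain, had 10 UMIs in 9 of the members and 40 in 38 of the spots with 0, 6.34 against 5.13 CPM, 1.24-fold (0.55 to 2.51). Il7 itself had 3 and 16 UMIs. The list of 13 genes, with the shared receptor chain Il2rg, the kinases Jak1 and Jak3 and the factors Stat5a and Stat5b, was at 827 against 874 CPM, a log2 ratio of -0.08 (-0.17 to 0.01). Of its 12 countable genes 1 exceeded 1.5-fold, against 3.70% of all genes. This was Cish, a feedback inhibitor induced by cytokines, at 1.80-fold (1.08 to 2.91). Il2rb, a receptor chain for IL2 and IL15 that was not in the list, was 1.95-fold (1.52 to 2.47).

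**Figure D2:**
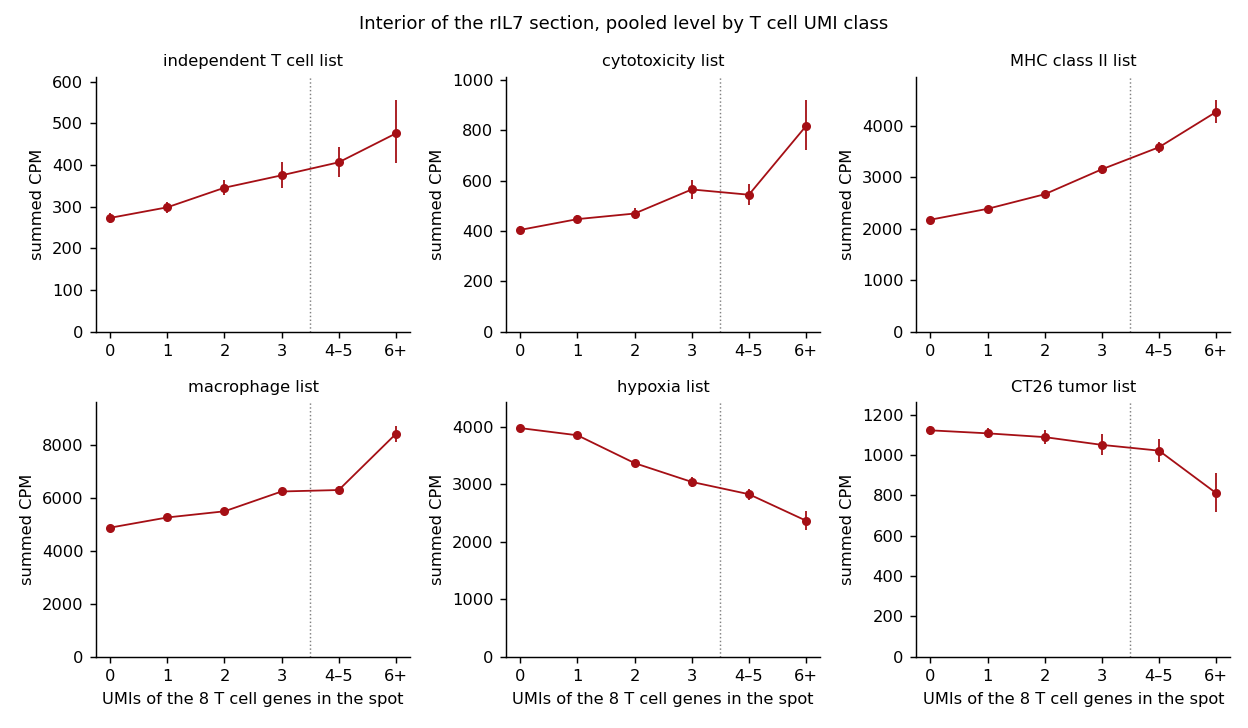
Summed level in CPM of 6 gene lists (vertical axes from 0) in interior spots of the rIL7 section grouped by their UMIs of the 8 T cell genes (horizontal axes), with bars for the 95% counting interval and a dotted line at the limit for members. T cell, MHC class II and macrophage lists climb and the hypoxia list falls across the classes of the whole interior, and the cytotoxicity list is no higher with 4 to 5 UMIs than with 3.

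Over the whole interior, several levels changed gradually with the T cell UMIs of the spot. From 0 through 1, 2, 3, 4 to 5 and at least 6 UMIs, the list of further T cell genes was at 273, 298, 345, 375, 406 and 475 CPM. The MHC class II list was at 2174, 2386, 2669, 3154, 3583 and 4270 CPM. Hypoxia genes stood at 3973, 3849, 3365, 3039, 2825 and 2365 CPM. Spots with exactly 4 UMIs differed from those with exactly 3 by a log2 ratio of 0.10 (-0.09 to 0.29) in the further T cell genes and 0.18 (0.12 to 0.25) in MHC class II. The 21 spots with at least 6 UMIs stood higher for cytotoxicity, at 817 CPM against 544 for 4 to 5, and for macrophage genes, at 8421 against 6301 CPM. Between 3 and 4 to 5 UMIs, cytotoxicity went from 565 to 544 CPM and the T cell attracting chemokines from 898 to 811 CPM. Among spots from step 6 inwards there was no such climb in MHC class II, which was at 2067, 2154, 2230, 2278, 2245 and 1918 CPM, the last in 7 spots. The further T cell genes there were at 257, 270, 298, 353, 321 and 238 CPM. Median depth over the interior rose less evenly, from 12773 in spots with 0 to 15414 with 4 to 5 and 14490 with at least 6.

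Chemokines that draw T cells were higher beside the T cell transcripts. Cxcl9, made in answer to interferon gamma, had a median of 2 UMIs per member, up to 11, and of 1 UMI per spot with 0, up to 10. It stood at 181 against 98.6 CPM, 1.83-fold (1.59 to 2.10), and remained 1.41-fold from step 6 inwards and 1.86-fold in steps 3 to 5. Cxcl10, a ligand of the same receptor, was 1.55-fold (1.39 to 1.72) over the interior and 1.09-fold from step 6 inwards. Ccl5, which T cells make themselves, was 1.30-fold (1.15 to 1.45), but a single member held 67 of its 383 UMIs and a single spot with 0 held 140 of 1461. With the spots with 0 weighted to the members' depth Ccl5 turned to a log2 ratio of -0.28, and the chemokine list was at 0.37. The list of 6 was at 955 against 653 CPM, a log2 ratio of 0.55 (0.46 to 0.63), and 6 of 6 genes were higher.

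Interferon-induced genes were also higher, mostly near the margin. The interferon gamma list was at 1794 against 1329 CPM, a log2 ratio of 0.43 (0.37 to 0.49), with 18 of 20 countable genes higher and 6 past 1.5-fold, against 3.70% of all genes. Irf8, a transcription factor of myeloid and lymphoid cells, was 1.73-fold (1.39 to 2.15), and the GTPase genes Gbp6 and Gbp2 were 1.63-fold and 1.54-fold. Deeper, from step 6 inwards, the list's log2 ratio was 0.10 (0.01 to 0.19), against 0.47 (0.38 to 0.56) in steps 3 to 5. The type I interferon list had a log2 ratio of 0.35 (0.24 to 0.46) over the interior, which turned to -0.06 (-0.24 to 0.11) from step 6 inwards.

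Genes of MHC class II showed larger ratios than the macrophage, cytotoxicity and interferon lists, but not at all depths of the tissue. Cd74, the invariant chain that chaperones these molecules, was detected in all 102 members, with 5 to 90 UMIs and a median of 26, against a median of 13 and a range of 0 to 62 in the spots with 0. It stood at 1767 against 1062 CPM, 1.66-fold (1.59 to 1.74). H2-Aa, on chromosome 17 at 34282744 to 34287823 of mm10, encodes the alpha chain of the I-A molecule and was at 463 against 249 CPM, 1.86-fold (1.71 to 2.03). H2-Eb1, a beta chain, was 1.82-fold (1.67 to 1.97) and H2-Ab1 1.74-fold (1.63 to 1.86). Of the list's 7 countable genes 7 were higher by 1.5-fold or more, against 3.70% of all genes, and the list's log2 ratio was 0.78 (0.74 to 0.82).

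By grid step, the MHC class II ratio was 2.09 (1.94 to 2.25) at step 3, 1.66 at step 4 and 1.65 at step 5. It was 1.21 (1.12 to 1.30) in steps 6 to 8 and 1.01 (0.90 to 1.14) in steps 9 to 11. From step 12 inwards it was 0.85 (0.78 to 0.93), so that the 17 members there lay below the 207 spots with 0. The spots with 0 varied less, from 3065 CPM at step 3 to 1938 CPM from step 12 inwards, while the members went from 6401 to 1644 CPM. In steps 3 to 5, H2-Aa was 2.02-fold and Cd74 1.90-fold, and from step 6 inwards both were 1.03-fold. Among genes with at least 50 UMIs, 3.98% were at least 1.5-fold higher in steps 3 to 5, where 6 of 6 class II genes were, and 3.46% from step 6 inwards, where 1 of 7 was, namely Ciita, the factor that switches these genes on, at 1.63-fold (0.85 to 2.91) on 14 and 72 UMIs.

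**Figure D3:**
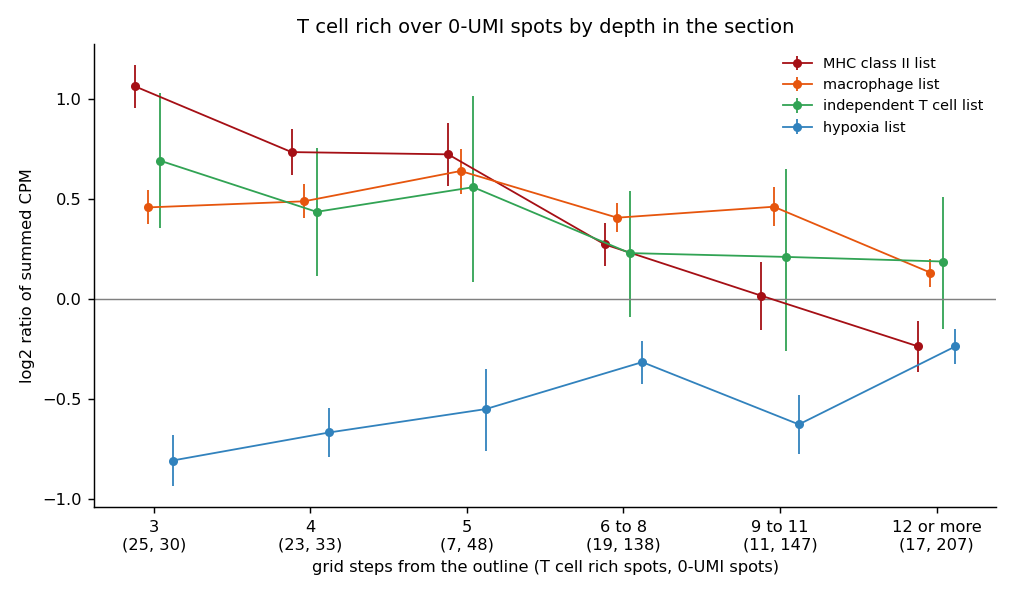
Log2 ratio of summed CPM, T cell rich over spots with 0 UMIs (vertical axis), by grid steps from the outline (horizontal axis, with the numbers of both kinds of spot), for 4 gene lists, with bars for the 95% counting interval. MHC class II starts highest at step 3 and ends below 0 from step 12 on, whereas the macrophage list lies above 0 and the hypoxia list below 0 in all 6 bands.

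Macrophage genes were higher in the members at every depth shown. The list of 12 had 37 to 323 UMIs per member with a median of 96.5, and a median of 56 in the spots with 0. It stood at 6753 against 4879.5 CPM, a log2 ratio of 0.47 (0.44 to 0.50), and the ratio ran from 1.1 (1.04 to 1.15) from step 12 inwards to 1.56 (1.44 to 1.68) at step 5. Between quadrants the list's log2 ratio ran from -0.05 to 0.61, higher in 3 of 4. Most of the list's genes differed by less than 1.5-fold. Apoe, a lipid carrier, was at 1852 against 1215 CPM, 1.52-fold (1.46 to 1.59), C1qa, of the complement system, 1.49-fold (1.39 to 1.60), and Lyz2, a lysozyme, 1.34-fold (1.29 to 1.39). Adgre1, which encodes the F4/80 antigen, was 1.47-fold (1.1 to 1.95) on 65 and 218 UMIs. Mrc1, the mannose receptor, went the other way, at 0.84-fold (0.71 to 0.99).

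Myeloid activation genes were divided. Arg1, an arginine-consuming enzyme of suppressive macrophages, had UMIs in 51 of 102 members and 349 of 603 spots with 0, 55.1 against 99.3 CPM, 0.56-fold (0.44 to 0.69). It was 0.53-fold in steps 3 to 5 and 0.74-fold from step 6 inwards, although 1.07-fold at step 4. Between quadrants of the interior its log2 ratio ran from -1.87 to 0.87, and it was higher in the members of 1 quadrant. Weighted to the members' depth, its log2 ratio was -1.21. Spp1, or osteopontin, was 0.79-fold (0.76 to 0.82) at 2463 against 3119 CPM. Among inflammatory genes, Cxcl2, a neutrophil chemokine, was 0.41-fold (0.21 to 0.74) and Ptgs2, the inducible cyclooxygenase, 0.56-fold (0.43 to 0.72). Ccl3 and Ccl4, which the inflammatory and T cell attracting chemokine lists share, went the other way and were higher in the members. Il1b was 1.04-fold (0.91 to 1.19) over the interior, but 1.27-fold (1.02 to 1.58) in steps 3 to 5 and 0.84-fold (0.68 to 1.03) from step 6 inwards. Tnf, on 5 and 50 UMIs, was 0.49-fold (0.15 to 1.23). Nos2, the inducible nitric oxide synthase, had 8 and 67 UMIs, 0.59-fold (0.24 to 1.23). Its depth-weighted log2 ratio was -1.42. Pf4, a platelet and macrophage chemokine, was 0.96-fold (0.86 to 1.07) over the interior, but 1.35-fold (1.09 to 1.68) in steps 3 to 5 and 1.07-fold (0.93 to 1.22) from step 6 inwards. Weighted to the members' depth over the interior, its log2 ratio was -0.72.

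The inflammatory list had a log2 ratio of -0.14 (-0.29 to 0.01), with 0.13 (-0.11 to 0.37) in steps 3 to 5 and -0.28 (-0.49 to -0.07) from step 6 inwards. The anti-inflammatory list had one of -0.34 (-0.39 to -0.30), of which Spp1 gave 3886 of 4221 UMIs. At least 1.5-fold lower were 4 of 8 and 1 of 5 countable genes, where 3.92% of all genes were. The monocyte list was at a log2 ratio of -0.16 (-0.24 to -0.08), the neutrophil list at 0.00 (-0.13 to 0.13) and the dendritic cell list at 0.20 (0.05 to 0.35). With the spots with 0 weighted to the members' depth, the inflammatory list was at -0.30, the monocyte list at -0.05 and the neutrophil list at -0.15. Each of these lies outside the interval of its unweighted value. Defining dendritic cell genes were nearly absent, with 3 UMIs of Clec9a, 1 of Xcr1 and 4 of Flt3 in the members. The B cell list of 6 genes had 17 and 47 UMIs, 1.79-fold (0.96 to 3.17), and was 2.23-fold (1.06 to 4.71) against spots with 0 within 2 steps of a member, a comparison chosen after the data were seen. Its marker Ms4a1 was at 0 in the members. Ly6g of neutrophils was also at 0.

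**Figure D4:**
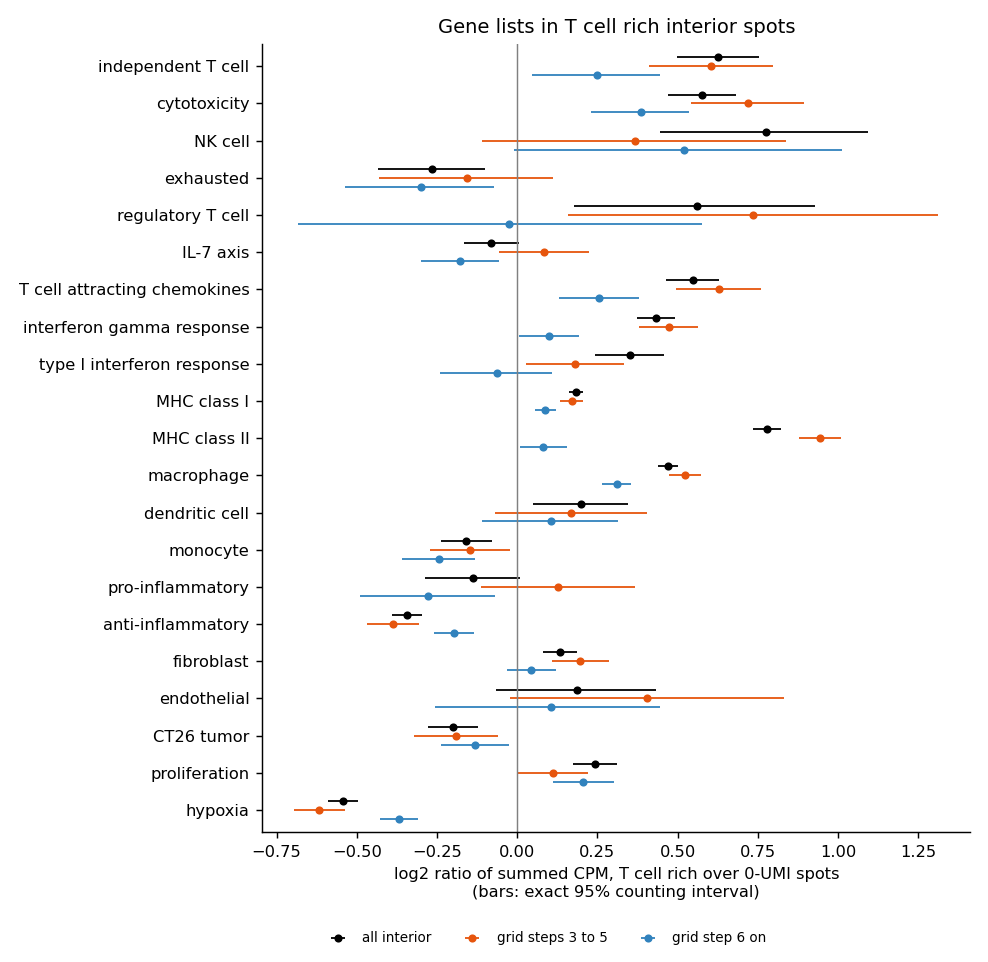
Log2 ratio of summed CPM (horizontal axis), T cell rich over spots with 0 UMIs, for 21 gene lists in the whole interior (black), in grid steps 3 to 5 (orange) and from step 6 inwards (blue), with bars for the 95% counting interval. The blue points lie nearer to 0 than the black ones for MHC class II (0.08 against 0.78) and interferon gamma response (0.10 against 0.43), and less so for macrophage (0.31 against 0.47) and hypoxia (-0.37 against -0.54).

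Genes induced by low oxygen were lower in the members. The list of 10 stood at 2727 CPM against 3973 CPM, a log2 ratio of -0.54 (-0.59 to -0.50), with 8 of 8 countable genes lower and 6 of them past 1.5-fold, against 3.92% of all genes. Bnip3, a mitochondrial protein induced by hypoxia, had a median of 1 UMI per member and 3 per spot with 0, and stood at 137 against 299 CPM, 0.46-fold (0.40 to 0.53). It lies on chromosome 7, at 138890836 to 138909506. Ankrd37 was 0.48-fold (0.38 to 0.59), Ndrg1 0.58-fold (0.51 to 0.66), Vegfa, the vessel growth factor, 0.58-fold (0.47 to 0.72), and the glucose transporter Slc2a1 0.61-fold (0.52 to 0.71). The glycolytic genes Pgk1 and Ldha, which gave the most UMIs of the list, were 0.67-fold and 0.77-fold. The list was lower in all 6 step bands, by a ratio of 0.57 (0.52 to 0.62) at step 3 and of 0.85 (0.80 to 0.90) from step 12 inwards. Between quadrants the list's log2 ratio ran from -0.67 to 0.01, and it was not lower in 1 of 4. Of the list's genes, the following counts are by step. In steps 3 to 5, 6 of its 7 countable genes were lower by 1.5-fold or more, where 4.45% of all genes were, and from step 6 inwards 2 of 8 were, against 6.20%.

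Tumor cell and proliferation genes differed little. Baiap2l1 and Rpl39l, which served as markers of CT26 cells, were at 977 against 1122 CPM in sum, a log2 ratio of -0.20 (-0.28 to -0.12). Baiap2l1 was detected in all 102 members and all 603 spots with 0 and was 0.81-fold (0.75 to 0.87), and Rpl39l was 0.99-fold (0.90 to 1.08). Every member thus held transcripts of this marker beside its T cell transcripts. The proliferation list was 0.24 higher on the log2 scale (0.17 to 0.31), with 9 of 10 genes higher and none past 1.5-fold. Fibroblast genes were at 0.13 (0.08 to 0.19) and endothelial genes at 0.19 (-0.07 to 0.43).

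With distance from the members, macrophage and cytotoxicity levels fell and hypoxia levels rose, without levelling off within 3 steps, whereas MHC class II changed little beyond 2 steps. Interior spots were taken at 0, 1, 2, 3 and at least 4 steps from the nearest member, whatever their own T cell UMIs. The macrophage list was at 6753, 6005, 5516, 5244 and 4413 CPM, and the hypoxia list at 2727, 3190, 3589, 3715 and 4314 CPM. Cytotoxic genes were at 602, 542, 467, 449 and 346 CPM. MHC class II was at 3730, 2909, 2329, 2221 and 2195 CPM. The groups differed in depth in the tissue, with median steps of 5, 6, 9, 10 and 9. The quadrant of low array rows and columns held 9 members in 473 interior spots, so distance was not separated from region of the section. From step 6 inwards alone, the macrophage levels still ran from 5962 to 4380 CPM and the hypoxia levels from 3141 to 4318 CPM, whereas MHC class II ran from 2187 to 2181 CPM.

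Counts over all genes depended on how the spots were chosen and on how many there were. A minimum mean level of 20 CPM was met by 7595 genes, of which 136 (1.79%) were higher in the members by 1.5-fold or more and 103 (1.36%) were lower by that fold. The direction was the same in all 4 quadrants for 75 and 68 of them. The quadrants are parts of 1 section and no replicates. The counts became 657 and 652 with a limit of 6 UMIs, which left 21 spots, and 801 and 585 after thinning, which left 48. They were 22 and 15 with at least 2 UMIs of CD3 genes and Trac, in 283 spots. Ratios from fewer UMIs scatter more, so the larger counts do not show that more genes differed.

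Among genes higher by that fold with the same direction in all quadrants, Ctsw had the highest ratio, followed by Sema4a, a semaphorin of immune cells, at 44.4 against 18.9 CPM, 2.35-fold (1.74 to 3.15). Ms4a4b, a membrane protein of T cells, was 2.21-fold (1.66 to 2.93) and its chromosome 19 neighbour Ms4a4c 2.09-fold (1.54 to 2.81). AW112010, annotated as a long non-coding RNA, was at 210.5 against 105 CPM, 2.00-fold (1.76 to 2.28), and was found in 94 of the 102 members. Fyb, an adaptor protein of the T cell receptor pathway, was 1.85-fold (1.30 to 2.59). Clec12a, a lectin of myeloid cells, was 1.98-fold (1.37 to 2.81), Plbd1 1.99-fold (1.5 to 2.63), which turned to a log2 ratio of -0.30 with spots thinned to 6000 UMIs, and Bcl2a1b, which has near-identical copies that can share reads, 1.86-fold (1.38 to 2.47). Endod1 was 2.05-fold (1.49 to 2.80) and Abcg1, a cholesterol exporter, 1.89-fold (1.30 to 2.70). From step 6 inwards Fyb was 2.03-fold and Sema4a 2.22-fold, Clec12a 1.0-fold and Abcg1 1.14-fold.

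Bnip3 had the lowest ratio among the lower genes, at 0.46-fold. P4ha2, a collagen prolyl hydroxylase, was 0.52-fold (0.36 to 0.74), and 0.23-fold in steps 3 to 5. Hmox1, or haem oxygenase, was 0.50-fold (0.40 to 0.62) at 59.6 against 119.8 CPM, with up to 71 UMIs in a spot with 0. Weighted to the members' depth, its log2 ratio was -1.87. Maff, a stress-induced transcription factor, was 0.50-fold (0.38 to 0.65), and Pthlh, a parathyroid hormone-related peptide, 0.54-fold (0.45 to 0.63) at 96.4 against 179.8 CPM. Gng8, Tbl2, Rubcn, Lrch3 and Dnmbp, on 23 to 33 UMIs in the members, lay between 0.47-fold and 0.54-fold. Tbl2 turned to a log2 ratio of 0.25 with spots thinned to 6000 UMIs.

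**Figure D5:**
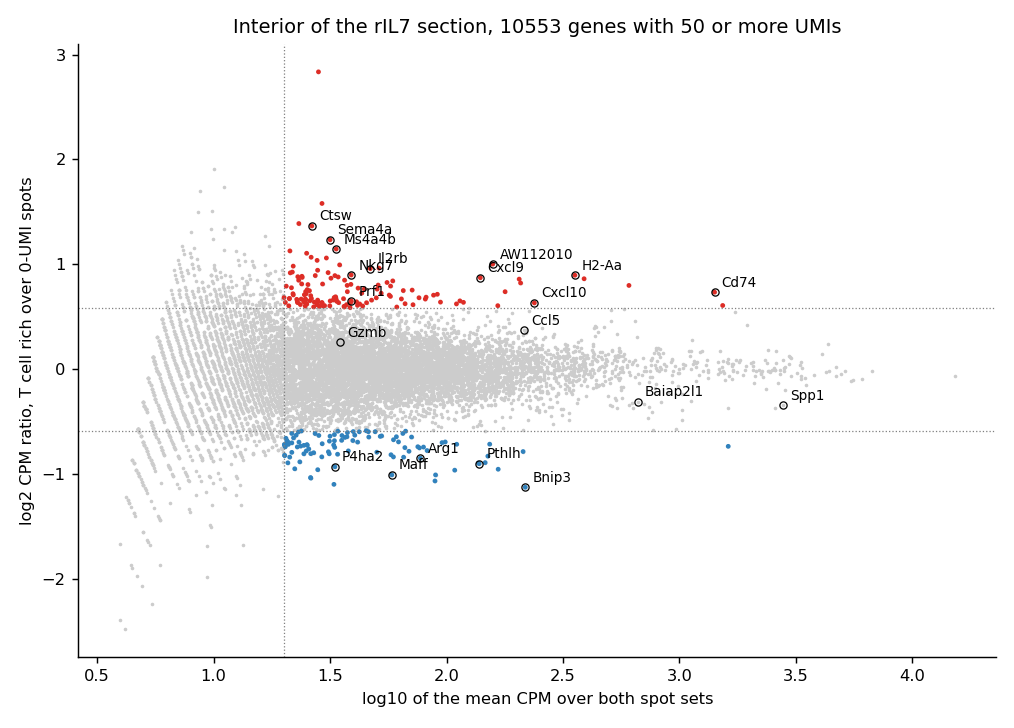
Log2 CPM ratio, T cell rich over spots with 0 UMIs (vertical axis), against the log10 of the mean CPM (horizontal axis) for genes with at least 50 UMIs; dotted lines mark 20 CPM and 1.5-fold, and red and blue points are the 136 higher and 103 lower genes past both. Ctsw, Cxcl9, H2-Aa and Cd74 lie above the upper line, Bnip3, Pthlh and Arg1 below the lower one, and Gzmb, Ccl5 and Spp1 between them.

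The same rule at the edge of the rIL7 section gave larger contrasts in the lists that follow, though not in every gene. Median depth was 12519 UMIs in the T cell rich edge spots and 9200 in the edge spots with 0, and the edge ratios were not weighted to depth. Comparing the 127 T cell rich edge spots with the 51 edge spots with 0 UMIs, the log2 ratio was 1.36 (1.16 to 1.58) for the further T cell genes and 1.54 (1.35 to 1.73) for cytotoxicity. It was 1.73 (1.66 to 1.80) for MHC class II, 1.17 (1.12 to 1.22) for macrophage genes and -1.18 (-1.26 to -1.11) for hypoxia. At the edge 12.9% of 7284 genes were higher by 1.5-fold or more, and 7.48% were lower by as much. Set directly against T cell rich edge spots, the interior members held 300.5 against 549.8 CPM of the 8 rule genes themselves. Their log2 ratio over the edge spots was -1.65 (-1.70 to -1.61) for MHC class II, -0.98 (-1.01 to -0.94) for macrophage genes and -1.15 (-1.26 to -1.04) for cytotoxicity. It was 0.64 (0.53 to 0.76) for CT26 genes and 0.32 (0.26 to 0.39) for hypoxia genes.

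The control section held few such spots. There 9 of 1806 interior spots passed the limit, 0.498% (0.228 to 0.944%), all with exactly 4 UMIs, against 6.38% in the rIL7 section. The control section was shallower, with a median of 9623 UMIs per spot against 12921.5. With each spot thinned to 6000 UMIs and the limit set at 3, the shares were 6 of 1655, 0.363% (0.133 to 0.787%), and 48 of 1577, 3.04% (2.25 to 4.02%), with 151 and 22 shallower spots left out. Treatment, animal, section and library cannot be told apart here. In the 9 control spots, against the 1344 control interior spots with 0, the log2 ratio was 1.23 (1.13 to 1.32) for MHC class II, 0.77 (0.69 to 0.85) for macrophage genes, 0.87 (0.48 to 1.24) for cytotoxicity and -0.17 (-0.30 to -0.04) for hypoxia. Median depth was 17655 UMIs in the 9 control spots and 9091.5 in the control interior spots with 0. This gap was wider than in the rIL7 section, at 15380.5 and 12773 UMIs. The control ratios were not weighted to depth. The control and rIL7 values are side by side, and no difference between them was tested.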

How the data were processed

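The matrices deposited for each section are raw UMI counts of 32285 features in every spot, which the authors made with Space Ranger 1.1.0 and the mm10 reference. Array positions were used as deposited, and image scale factors were not. Spots over tissue with more than 200 genes and under 10% mitochondrial UMIs were kept, which removed 2 control spots and 1 rIL7 spot. Total depth was 25729233 UMIs over the kept rIL7 spots and 22951678 over those of the control. The sections share 1702 spot barcodes because arrays of this design reuse them. Doublet calling was not applied, since spots are not cells, and no deconvolution was made.

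Grid steps were counted on the hexagonal array from the outer outline of the largest tissue piece, with inner holes ignored. UMIs were summed over the spots of a set and divided by their total, giving CPM. Intervals are exact at the 95% level, binomial (Clopper-Pearson) for shares and ratios, and PCR and capture effects are outside them. A gene counted towards a list from 50 UMIs in both sets together. A gene in several lists counts in each. The size rule asked for a mean of 20 CPM and a ratio of 1.5. Named genes were members of the lists, 25 further genes of interest, and the 15 highest and 10 lowest ratios past the size rule with 1 direction in 4 quadrants, split at the median array row and column. The members, the 38 lists and these genes were chosen with earlier results of these data known. Of the genes compared, 98.4% matched a RefSeq symbol of the GRCm38 assembly, which gave positions. Symbols used for more than 1 feature (38 in all) were left out, Ccl19 and Ccl21a among them, and Cxcl11 and Mx1 were not analysed here.

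Analyses used Python 3.11.15 with numpy 2.4.6, scipy 1.17.1 and pandas 2.3.3. R 4.3.3 with edgeR 4.0.16 and DESeq2 1.42.0 gave alternative scaling factors only. The scripts were tested on simulated data.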

Additional observations from a re-analysis of the deposited data

How the results depend on the processing

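No paired analysis was possible because each group holds 1 section. No replicate could be left out for the same reason. Log2 ratios of list sums are given in the order further T cell genes, cytotoxicity, MHC class II, macrophage and CT26 genes, for which the reported values were 0.63, 0.58, 0.78, 0.47 and -0.20, and values that moved by less than their counting interval are not repeated. The reported counts of genes were 136 higher and 103 lower. None of the 5 lists changed direction under any alternative below, and the cause of each shift was not tested. Quadrants and finer step bands are not among these alternatives. In those splits MHC class II was 0.85-fold from step 12 inwards, and cytotoxicity and macrophage were at -0.02 and -0.05 in their lowest quadrant.

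A limit of 3 UMIs gave 212 spots, MHC class II 0.66, macrophage 0.41, and 78 higher and 43 lower genes. A limit of 6 gave 21 spots, ratios of 0.80, 1.02, 0.97, 0.79 and -0.47, and 657 and 652 genes, and it turned Nos2 to 0.053. At least 2 UMIs of CD3 genes and Trac gave 283 spots, ratios of 0.46, 0.30, 0.54, 0.29 and -0.092, and 22 and 15 genes. Taking as many spots by rate of T cell UMIs gave 0.78 for further T cell genes, 1.05 for MHC class II, 0.50 for macrophage, -0.32 for CT26, and 305 and 160 genes. Thinning each spot to 6000 UMIs left 48 spots, ratios of 0.85, 0.70, 1.15, 0.58 and -0.44, and 801 and 585 genes, and turned Tbl2 to 0.25 and Plbd1 to -0.30.

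Weighting the spots with 0 to the members' depth gave 0.76, 0.30, 0.91 and 0.36 for the first 4 lists. Weighting them to the members' grid steps gave 0.43 for further T cell genes, 0.59 for MHC class II and 0.40 for macrophage, and -0.045 for type I interferon. Against all other interior spots the first 4 ratios were 0.47, 0.44, 0.63 and 0.37, with 65 genes higher. Equal weight per spot gave MHC class II 0.88 and macrophage 0.50. TMM and median-of-ratios scaling each shifted all ratios by -0.03, with macrophage at 0.43 and 0.44.

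An interior from step 6 left 47 spots, ratios of 0.25, 0.38, 0.081 and 0.31, and 175 genes lower. There the regulatory T cell list was at -0.025, naiveness at -0.13, type I interferon at -0.064 and the adipocyte list at -0.12, each above 0 over the whole interior. A ratio of 2 kept 12 and 7 genes, a minimum of 5 CPM 487 and 364, and a minimum of 50 UMIs alone 390 and 414. Chosen after the data were seen, grid steps 3 to 5 alone gave cytotoxicity 0.72, MHC class II 0.94, macrophage 0.52, and 368 and 346 genes. Spots with 0 within 2 steps of a member, also chosen then, gave 0.38, 0.67 and 0.35 for these lists. Without Ccl5, left out after the data were seen, cytotoxicity was at 0.73. Of 781 values of named genes under alternatives, 627 moved by less than their interval and 3 changed direction. Of 509 values of other lists, 411 and 5 did so.

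Counts limit the text most where a gene had under 20 UMIs in the members, as Pdcd1, Fasl, Ifng, Il7r and Foxp3 had. The T cell call of a spot rests on 4 to 7 molecules. Over the whole interior, spots with 3 were close to those with 4 in the further T cell genes, whereas MHC class II was higher with 4. The intervals of both differences overlap. From step 6 inwards MHC class II was at 2278 CPM with 3 UMIs and 2245 CPM with 4 to 5.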
